A study of Homo sapiens with 20 samples.

Results

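The genes described here drive the entry of a cell into S phase and the copying of its DNA: cyclin E and its kinases, the proteins that license and fire origins, the MCM2-7 helicase, the replicative polymerases, the sliding clamp and its loader, and the factors that rebuild chromatin and protect forks. A list of 49 such genes was taken, chosen with earlier results of these data known. A gene was measured where the arrays held a probe set annotated to its symbol alone. That gave 43 of the 49 genes, among 14232 genes with such a probe set and 22011 probe sets in all. CDK4, MCM7, POLA1, PCNA, FEN1 and TIPIN lie on probe sets annotated to several symbols and have no value here.

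The study measured total RNA on 20 Affymetrix exon arrays from 2 established human cell lines, LP-1 (also spelled LP1), a multiple myeloma line, and Raji, a Burkitt lymphoma line. In each line, the groups were cells given 500 nM of an active BET inhibitor for 4 h, the same for 8 h, 500 nM of its inactive enantiomer for 4 h, the same for 8 h, and untreated cells taken at 0 h. The enantiomer is the mirror-image molecule, at the same dose and time, and the labels do not name the compound. Each of the 10 groups had 2 biological replicates per the labels, which do not say whether these came from separate cultures, and no untreated array was taken at 4 or 8 h.

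BET proteins bind acetylated histones and help RNA polymerase II to elongate, and their inhibitors displace them from chromatin. In G1, cyclin D and cyclin E kinases phosphorylate the retinoblastoma protein, which releases E2F factors to switch on the genes of DNA replication. ORC, CDC6 and CDT1 load the MCM helicase at origins, and the CDC7 and cyclin-dependent kinases later fire it with CDC45 and the GINS complex. Lymphoid tumours often depend on MYC, which also drives many genes of cell growth and division.

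Values are log2 expression values as deposited, and differences are given as log2 fold changes ± the standard error of the fit (SE). The p-values are from limma, adjusted by the Benjamini-Hochberg method over all 22011 probe sets. A gene is said to have risen or fallen where this adjusted p was under 0.05. The array medians ran from 5.13 to 5.39, and the replicates of a group correlated at 0.973 to 0.989 over all probe sets. The 75th percentiles ran from 6.75 on replicate 1 of the inactive enantiomer at 4 h in Raji to 7.23 on an untreated LP-1 array. The median over the 43 genes differed between replicates of BET inhibitor in LP-1, at 7.70 and 7.94 at 4 h, where the 75th percentiles were 6.80 and 7.03, and at 8.09 and 7.83 at 8 h, where they were 7.10 and 7.05. The lines matched their labels, with a mean over 5 B cell markers of 8.34 to 9.41 on Raji arrays and 4.14 to 4.82 on LP-1 arrays, and over 6 plasma cell markers of 5.69 to 6.43 on Raji arrays and 8.34 to 9.28 on LP-1 arrays. These levels moved with the compound: in Raji the B cell mean was 8.34 to 8.77 with BET inhibitor, against 8.95 to 9.16 with the inactive enantiomer, with 2 of the 5 markers lower over both times, PAX5 and CR2. The plasma cell mean in Raji was 5.69 to 5.96, against 6.16 to 6.43, with 2 of the 6 lower, PRDM1 (-1.36) and TNFRSF17 (-1.69). In LP-1 the plasma cell mean was 8.34 to 8.65, against 8.76 to 8.98, with TNFRSF17 (-1.88) and XBP1 (-0.41) lower, and of the B cell markers MS4A1 was lower (-1.24). Means over 7 T and NK cell markers (2.93 to 3.43) and 4 myeloid markers (3.59 to 4.10) were low on all arrays, with none called. The part of these markers in the results was not tested. MYC was lower with BET inhibitor on all 8 arrays, at 7.18 to 7.66 in LP-1 against 9.37 to 9.59 with the inactive enantiomer, and at 6.97 to 7.23 in Raji against 8.36 to 8.62. HEXIM1, a common marker of BET inhibition, was higher, at 8.07 to 8.68 in LP-1 against 6.98 to 7.14 with the inactive enantiomer, and at 8.16 to 8.33 in Raji against 6.13 to 6.40.

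From the lowest to the highest of the 10 group means, the 43 genes had a median range of 0.750. Both lines and all treatments enter this range. The median standard deviation between replicates was 0.117, which is not the same measure as a range over 10 means. The range was narrowest for POLD1, the catalytic subunit of polymerase delta, at 0.249, and widest for CCNE1, which encodes cyclin E1, at 2.33. The measurements are of bulk cultures, in which more cells in S phase and more RNA of a gene per cell cannot be told apart.

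Of the 43 genes, 13 passed the test with BET inhibitor over inactive enantiomer in at least 1 of 6 comparisons (each line at 4 h, at 8 h and over both times), as did 12.9% of all probe sets. Their promoters are of interest because E2F sites near the start are a shared feature of replication genes. RefSeq windows of 300 bases on GRCh38.p14, 250 before and 50 after a gene's start, were searched on both strands for TTTNNCGC with each N a C or a G. Such an E2F word stood in 18 of 44 windows of the measured genes (40.9%), against 3.3% of the 35116 windows of the whole table. The windows of these genes also had a higher median GC content, at 65.0% against 58.7%. Counted by gene, 17 of the 36 genes with an entry held it: 5 of the 10 that passed the test with BET inhibitor and 12 of the 26 that did not (46.2%). CACGTG, the E-box read by MYC among other factors, stood in 11.4% of the genes' windows and 7.3% of all windows. By gene, it was found for 0 of the 10 that passed the test and 5 of the 26 that did not (19.2%). CCAAT stood in 47.7% of the genes' windows and 34.6% of all windows, and by gene for 7 of the 10 that passed (70.0%) and 12 of the 26 that did not (46.2%).

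The 5 promoters that hold the word and belong to genes that passed the test are shown, with its letters, on either strand, in capitals. They are CLSPN (chr1:35769929-35770228, minus strand), UHRF1 (chr19:4909251-4909550, plus strand), POLE (chr12:132687293-132687592, minus strand), POLA2 (chr11:65261712-65262011, plus strand) and POLE2 (chr14:49688165-49688464, minus strand). The first letter of the word stands at -5 in CLSPN, -14 in UHRF1, -18 in POLE, -53 in POLA2 and -5 in POLE2, counted along the gene's strand with the first transcribed base as 1 and no 0. UHRF1 has 3 windows in the table, of which the one shown holds the word nearest to its start. The first 4 genes rose in at least 1 comparison and POLE2 fell.
CLSPN: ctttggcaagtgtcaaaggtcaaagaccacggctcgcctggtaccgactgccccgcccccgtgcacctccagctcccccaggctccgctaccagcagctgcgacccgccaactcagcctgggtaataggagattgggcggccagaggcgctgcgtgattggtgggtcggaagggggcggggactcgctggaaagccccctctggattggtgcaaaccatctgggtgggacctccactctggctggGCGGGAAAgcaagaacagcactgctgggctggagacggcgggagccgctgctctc
UHRF1: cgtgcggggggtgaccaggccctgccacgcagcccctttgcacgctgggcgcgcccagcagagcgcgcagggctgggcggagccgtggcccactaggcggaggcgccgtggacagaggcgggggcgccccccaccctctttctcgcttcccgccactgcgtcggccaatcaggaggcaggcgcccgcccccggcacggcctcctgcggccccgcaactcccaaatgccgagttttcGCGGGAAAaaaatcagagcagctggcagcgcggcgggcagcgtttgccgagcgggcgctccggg
POLE: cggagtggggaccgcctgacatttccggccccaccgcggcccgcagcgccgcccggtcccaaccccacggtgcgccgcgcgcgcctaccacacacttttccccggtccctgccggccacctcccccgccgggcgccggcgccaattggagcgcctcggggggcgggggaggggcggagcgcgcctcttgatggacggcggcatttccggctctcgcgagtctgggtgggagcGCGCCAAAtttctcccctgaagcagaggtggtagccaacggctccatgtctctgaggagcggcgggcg
POLA2: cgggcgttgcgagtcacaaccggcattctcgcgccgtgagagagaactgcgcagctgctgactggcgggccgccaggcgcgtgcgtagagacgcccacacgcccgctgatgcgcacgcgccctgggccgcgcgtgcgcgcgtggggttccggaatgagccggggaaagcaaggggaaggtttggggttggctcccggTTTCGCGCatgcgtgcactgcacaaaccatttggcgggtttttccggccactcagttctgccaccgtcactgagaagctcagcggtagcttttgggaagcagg
POLE2: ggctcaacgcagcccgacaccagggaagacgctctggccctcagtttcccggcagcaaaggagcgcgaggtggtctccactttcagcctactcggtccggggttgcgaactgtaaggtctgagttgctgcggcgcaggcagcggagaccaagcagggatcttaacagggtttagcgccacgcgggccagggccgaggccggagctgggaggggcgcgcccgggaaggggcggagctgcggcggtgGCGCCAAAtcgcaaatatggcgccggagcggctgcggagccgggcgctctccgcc

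After 8 h in LP-1, 7 of the 43 genes rose with BET inhibitor over the inactive enantiomer and none fell. All probe sets together gave 3.76% called higher and 1.97% called lower. The 7 came from 6 stages of replication: CCNE2 of the cyclins, ORC1 and ORC6 of origin licensing, POLE of the polymerases, RFC5 of the clamp loader, UHRF1 of chromatin and CLSPN of fork protection. The median change of the 43 genes was 0.25, against 0.06 over all probe sets, and 36 of the 43 changes were above 0. In 26 of the 43 both BET inhibitor arrays lay above both inactive arrays, which was so for 27.9% of all probe sets. In 4 both lay below, against 16.3%. The median level of the 43 genes stood at the 84.8th percentile of all probe sets. Their median was 7.67 and 7.78 on the inactive arrays, against 8.09 and 7.83 with BET inhibitor. The arrays' 75th percentiles were 6.91 and 7.07, against 7.10 and 7.05. The part of level and of this shift in the counts was not tested. Quantile normalization kept the 7 calls, whereas centring the arrays on their medians kept only those of CLSPN, ORC1 and UHRF1.

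CLSPN encodes claspin, which carries the replication checkpoint signal to CHK1 and holds fork speed. Its values at 8 h in LP-1 were 8.78 and 8.92 with BET inhibitor, against 7.73 and 7.78 with the inactive enantiomer and 7.94 and 8.18 untreated. Both BET inhibitor arrays lay above every other LP-1 array, and the change of 1.09 ± 0.19 (SE) was the largest of the 43 (limma adjusted p = 0.00689). At 4 h its values were 7.98 and 8.43 with BET inhibitor, against 7.99 and 7.98 with the inactive enantiomer, so these groups overlapped. UHRF1 guides maintenance methylation of newly made DNA. It was at 6.44 and 6.50 with BET inhibitor at 8 h, against 5.59 and 5.53 with the inactive enantiomer and 5.88 and 6.08 untreated, a rise of 0.91 ± 0.15 (adjusted p = 0.00525). At 4 h UHRF1 had 5.61 and 5.87 with BET inhibitor, against 5.82 and 6.12 with the inactive enantiomer, and the groups overlapped.

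The licensing genes ORC1 and ORC6, subunits of the origin recognition complex, rose by similar amounts at 8 h. ORC1 had 7.38 and 7.39 with BET inhibitor, against 6.75 and 6.70 with the inactive enantiomer and 6.68 and 6.84 untreated (0.66 ± 0.12, adjusted p = 0.00714). ORC6 had 8.81 and 8.77, against 8.19 and 8.22 inactive and 8.49 and 8.43 untreated (0.58 ± 0.14, adjusted p = 0.0311). In both genes the BET inhibitor arrays at 8 h were above the inactive and the untreated arrays. The other licensing genes did not pass: CDC6, which loads the helicase with ORC, changed by 0.22, with a 95% interval of -0.17 to 0.61, and CDT1, its partner, by -0.02, with an interval of -0.45 to 0.42.

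POLE, the catalytic subunit of leading-strand polymerase epsilon, had 7.73 and 7.30 with BET inhibitor at 8 h, against 6.99 and 6.93 with the inactive enantiomer and 7.01 and 6.91 untreated (0.56 ± 0.13, adjusted p = 0.0289). RFC5, a subunit of the loader that places the PCNA clamp on DNA, had 7.66 and 7.59, against 6.83 and 7.08 inactive and 7.28 and 7.22 untreated (0.67 ± 0.17, adjusted p = 0.0400). Neither gene's BET inhibitor arrays overlapped the inactive or untreated arrays. CCNE2, which encodes cyclin E2, the activator of CDK2 at S phase entry, differed in this. Its values were 8.09 and 7.98 with BET inhibitor, against 7.23 and 7.51 with the inactive enantiomer (0.66 ± 0.18, adjusted p = 0.0473), but 8.46 and 8.29 in untreated cells. The BET inhibitor arrays of CCNE2 thus lay above the inactive arrays and below the untreated ones.

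**Figure D1:**
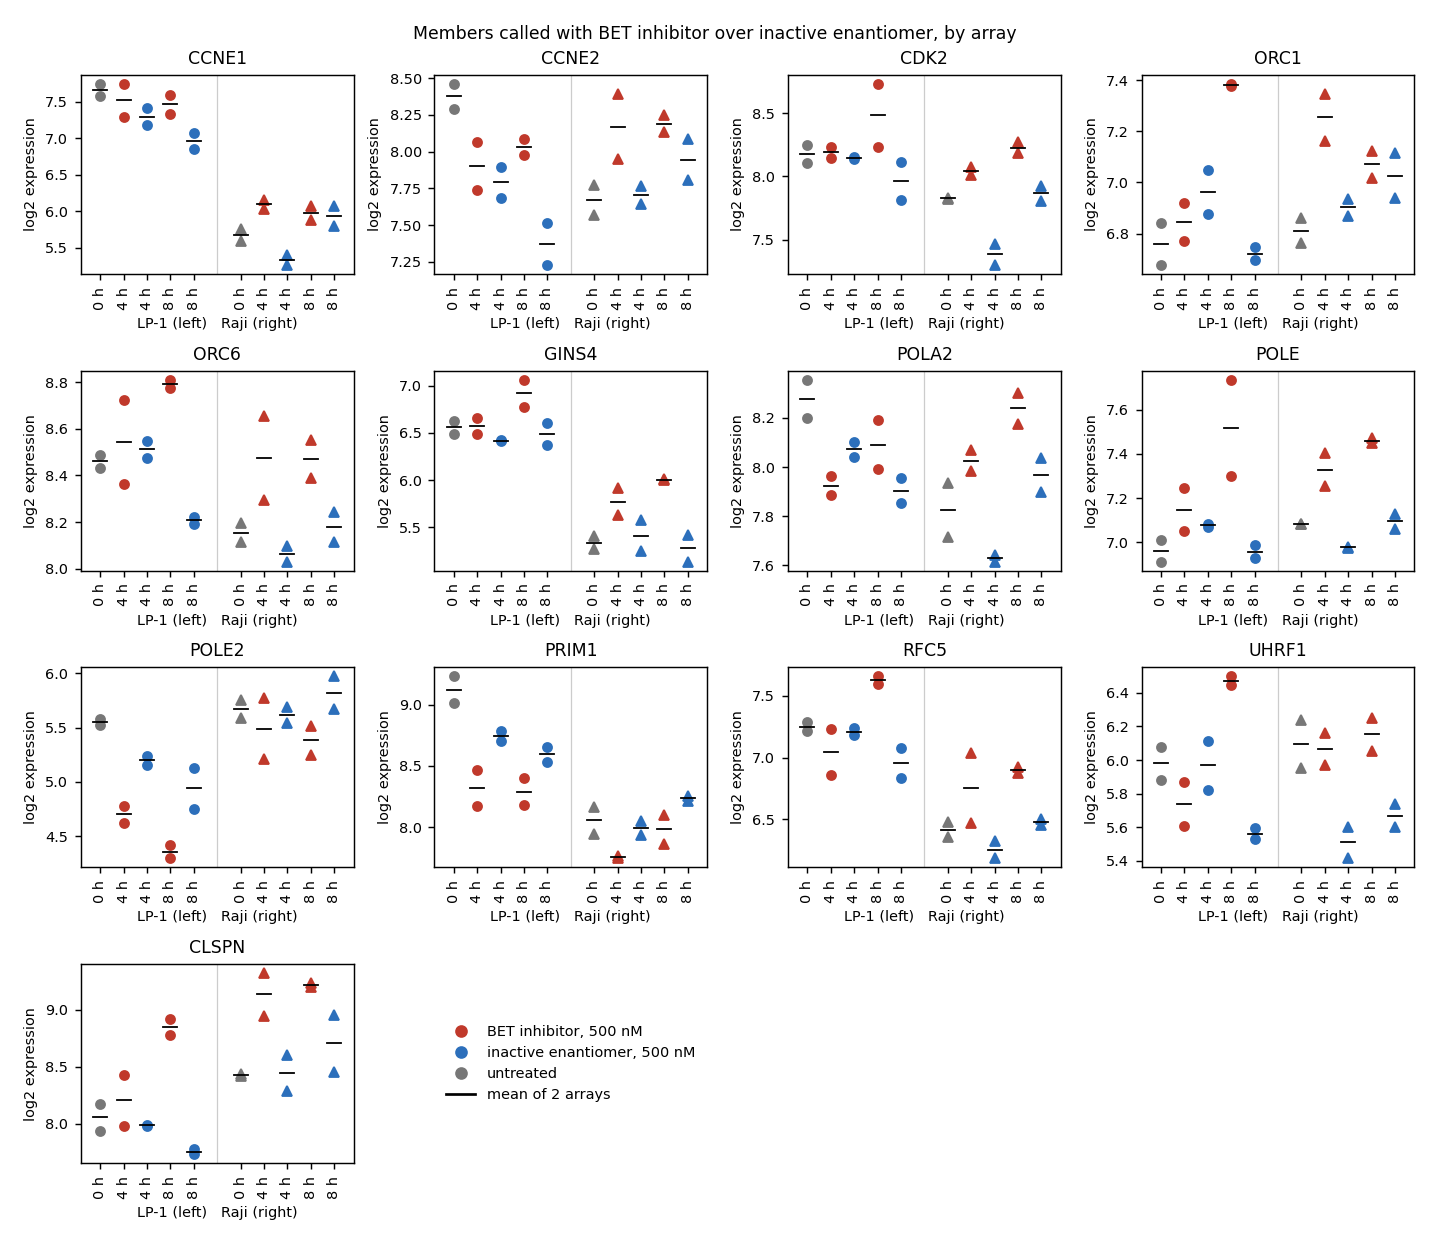
Log2 expression (vertical axis) of the 13 genes called with BET inhibitor over inactive enantiomer, for every array; LP-1 stands on the left of each panel and Raji on the right, points are arrays and bars the mean of 2. In LP-1 at 8 h, CLSPN lies at 8.78 and 8.92 with BET inhibitor, against 7.73 and 7.78 with the inactive enantiomer.

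CLSPN, UHRF1 and ORC1 passed the test at 8 h in LP-1 when each array compared was left out in turn, whereas CCNE2, ORC6 and RFC5 passed in none of these 4 fits and POLE in 1. The count was 3 without BET inhibitor replicate 1, inactive replicate 1 or inactive replicate 2, 3 after centring on the array medians (CLSPN, UHRF1 and ORC1 in each), 2 when only LP-1 arrays were fitted (CLSPN and UHRF1), and 6 without BET inhibitor replicate 2, where CDK2 and CHAF1B joined CLSPN, UHRF1, ORC1 and POLE.

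After 4 h in LP-1, no member rose or fell at an adjusted p under 0.05, against 2.28% of all probe sets; 8 of the 43 had an unadjusted p under 0.05, against 14.3% of all probe sets. Of the 43 changes, 30 were below 0, with a median of -0.17, against -0.04 over all probe sets, which quantile normalization of the arrays turned to 0.0024 and 0.03. The lowest change was that of CDC7, the kinase that fires licensed origins together with its partner DBF4. CDC7 had 6.58 and 7.22 with BET inhibitor at 4 h, against 7.71 and 7.69 with the inactive enantiomer and 7.66 and 7.95 untreated, a change of -0.80 ± 0.26 (adjusted p = 0.160). Both of its BET inhibitor arrays lay below the other 4, and the lower was replicate 1, which also had the lower median over the 43 genes; the part of that shift in the result was not tested. Without BET inhibitor replicate 2, CDC25A, POLD3 and RFC3 passed the test as lower, so that 3 genes were called.

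Over 4 and 8 h together in LP-1, CLSPN rose and a pair of genes fell, against 2.62% of all probe sets called higher and 4.44% called lower. Both that fell begin or extend DNA strands. POLE2, the accessory subunit of polymerase epsilon, had 4.62 and 4.78 at 4 h and 4.30 and 4.42 at 8 h with BET inhibitor, against 5.24 and 5.16 at 4 h and 4.75 and 5.13 at 8 h with the inactive enantiomer, and 5.58 and 5.53 untreated. POLE2 had the lowest mean level of the members, at 5.27, the 50th percentile of all probe sets. Each of its LP-1 values with BET inhibitor or inactive enantiomer lay below the median of its array. Whether values at this level lie near background was not tested. PRIM1, the catalytic subunit of the primase that makes RNA primers, had 8.17 and 8.47 at 4 h and 8.40 and 8.18 at 8 h with BET inhibitor, against 8.79 and 8.70 at 4 h and 8.53 and 8.66 at 8 h with the inactive enantiomer, and 9.23 and 9.01 untreated. At each time both genes were lower on both BET inhibitor arrays than on both inactive arrays, and the untreated arrays were the highest. POLE2 fell by 0.54 on the log2 scale (SE 0.13, adjusted p = 0.0291), PRIM1 fell by 0.36 (SE 0.10, adjusted p = 0.0472), and CLSPN rose by 0.66 ± 0.14 (adjusted p = 0.0121). POLE, whose product forms one enzyme with that of POLE2, was called higher at 8 h. CLSPN passed without each of the 8 arrays in turn, POLE2 in 3 of these 8 fits and PRIM1 in 1; without BET inhibitor replicate 1 at 4 h neither was called, and CCNE1, CLSPN and ORC6 were called higher. PRIM1 also lost its call after centring, after quantile normalization, which gave 7 higher and 1 lower (POLE2), and when only LP-1 arrays were fitted; the count was 1 (CLSPN) without BET inhibitor replicate 1 at 8 h, inactive replicate 2 at 8 h or either inactive replicate at 4 h, and 5 without BET inhibitor replicate 2 at 8 h.

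In Raji, the test over 4 and 8 h together called 7 of the 43 genes higher with BET inhibitor and none lower, against 4.30% of all probe sets called higher and 1.99% called lower. The 7 were CDK2 of the G1/S kinases, GINS4 of origin firing, POLA2 and POLE of the polymerases, RFC5 of the clamp loader, UHRF1 and CLSPN. The median change was 0.10 over the 43 genes and -0.0025 over all probe sets. CLSPN, POLE, RFC5 and UHRF1 were also among the 7 that rose at 8 h in LP-1, which sets 1 time against both times. With both times together in each line, CLSPN alone was called higher in both, and no gene was called lower in both. At 8 h in each line, no call was shared. The overlap of these comparisons over all probe sets was not computed, so how unusual this sharing is was not tested.

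UHRF1 had 5.97 and 6.16 at 4 h and 6.25 and 6.06 at 8 h with BET inhibitor, against 5.42 and 5.60 at 4 h and 5.60 and 5.74 at 8 h with the inactive enantiomer (0.52 ± 0.11, adjusted p = 0.0123). Untreated Raji cells had 5.96 and 6.24 for UHRF1, close to the BET inhibitor arrays and above the inactive ones. CDK2, the kinase bound by cyclin E, had 8.01 and 8.08 at 4 h and 8.27 and 8.18 at 8 h with BET inhibitor, against 7.30 and 7.47 at 4 h and 7.92 and 7.81 at 8 h with the inactive enantiomer, and 7.83 and 7.82 untreated (0.51 ± 0.11, adjusted p = 0.0144). All 4 BET inhibitor arrays were above the inactive and untreated arrays for CDK2. GINS4, a subunit of the GINS complex that joins the helicase to the polymerase, had 5.63 and 5.92 at 4 h and 6.01 and 6.0 at 8 h with BET inhibitor, against 5.57 and 5.25 at 4 h and 5.42 and 5.14 at 8 h with the inactive enantiomer, and 5.27 and 5.41 untreated (0.54 ± 0.11, adjusted p = 0.0131). It was also the only member called at 8 h alone (0.73 ± 0.16, adjusted p = 0.0410), where 0.827% of all probe sets were called higher and 1.05% lower.

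CLSPN in Raji had 8.95 and 9.32 at 4 h and 9.20 and 9.23 at 8 h with BET inhibitor, against 8.29 and 8.60 at 4 h and 8.96 and 8.45 at 8 h with the inactive enantiomer, and 8.44 and 8.42 untreated (0.60 ± 0.14, adjusted p = 0.0203). One inactive array at 8 h reached the lowest BET inhibitor array. POLE had 7.26 to 7.47 on the 4 BET inhibitor arrays, against 6.98 to 7.13 on the 4 inactive arrays and 7.09 and 7.08 untreated, with no overlap (0.36 ± 0.09, adjusted p = 0.0420). RFC5 had 6.47 to 7.04, against 6.19 to 6.50 inactive and 6.36 and 6.48 untreated (0.46 ± 0.12, adjusted p = 0.0424), and POLA2, the subunit that ties primase to polymerase alpha, had 7.99 to 8.30, against 7.62 to 8.04 inactive and 7.93 and 7.71 untreated (0.33 ± 0.08, adjusted p = 0.0337). In both genes the BET inhibitor and inactive arrays overlapped when the times were put together.

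After 4 h in Raji, CCNE1 alone of the 43 passed, against 1.44% of all probe sets called higher and 0.341% called lower. It had 6.03 and 6.16 with BET inhibitor, against 5.26 and 5.41 with the inactive enantiomer and 5.59 and 5.76 untreated (0.76 ± 0.17, adjusted p = 0.0474). At 8 h, CCNE1 was at 5.89 and 6.08 with BET inhibitor, against 6.07 and 5.81 with the inactive enantiomer, and these groups overlapped. The median of the 43 genes on the Raji arrays at 4 h was 7.76 and 7.92 with BET inhibitor, against 7.72 and 7.65 with the inactive enantiomer, and the arrays' 75th percentiles were 6.90 and 7.04, against 6.75 and 6.85. The part of this shift in the 4 h values was not tested; quantile normalization moved the median change of the 43 genes at 4 h to 0.02, against 0.18 as deposited, and kept CCNE1.

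No Raji call held without each of the arrays in turn. Over both times the count was 0 without BET inhibitor replicate 2 at 4 h, 1 without BET inhibitor replicate 1 or inactive replicate 2 at 8 h, 2 without inactive replicate 1 at 4 h, 3 without BET inhibitor replicate 2 at 8 h or inactive replicate 2 at 4 h, 5 without inactive replicate 1 at 8 h, 2 when only Raji arrays were fitted, and 7 higher and 2 lower after quantile normalization; the calls of CCNE1 at 4 h and of GINS4 at 8 h were lost without each of the 4 arrays compared.

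**Figure D2:**
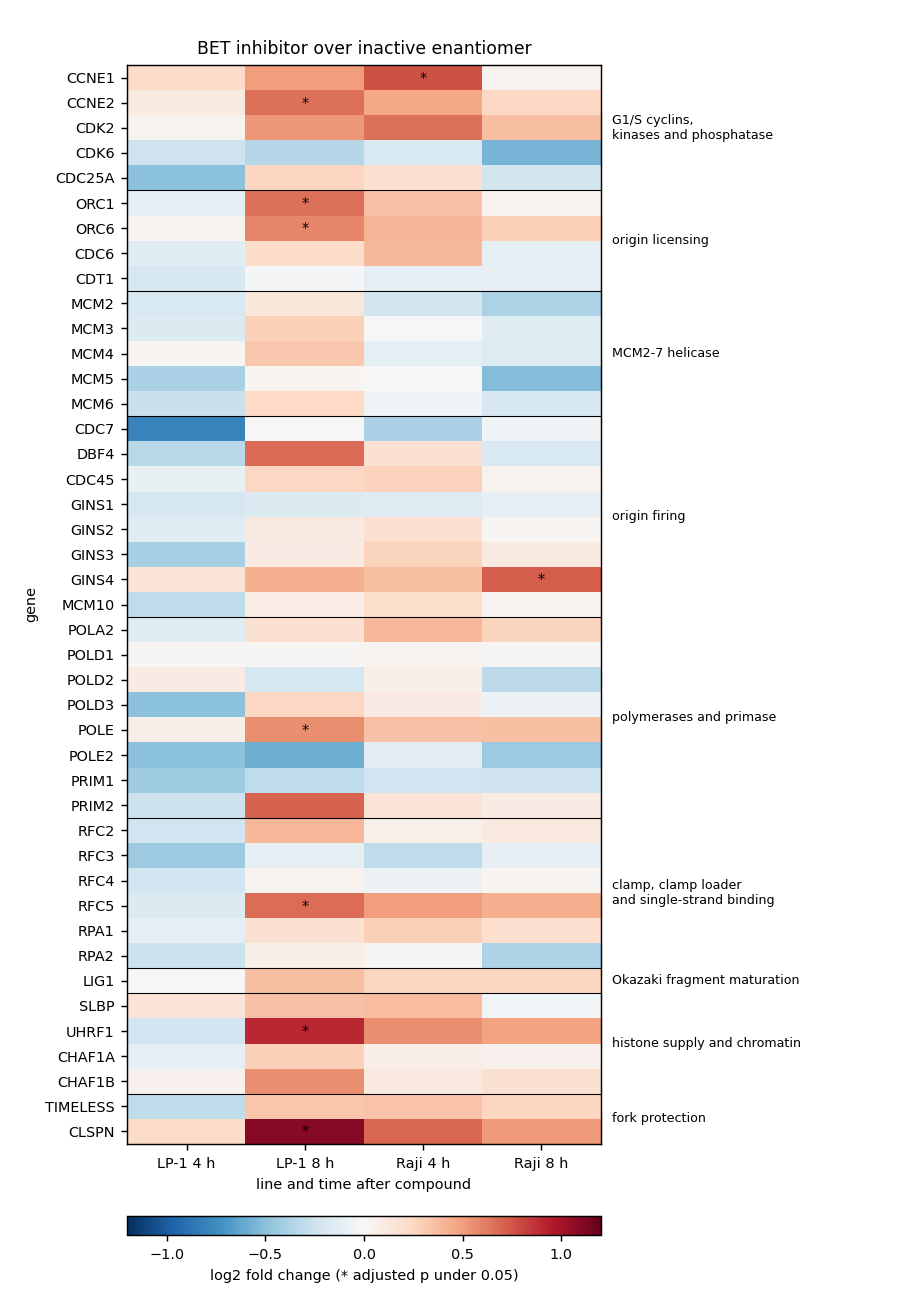
Log2 fold change with BET inhibitor over inactive enantiomer for the 43 genes (rows, grouped by role) in each line and time (columns); colour gives the change and an asterisk marks an adjusted p under 0.05. The 9 asterisks are 7 in LP-1 at 8 h, 1 in Raji at 4 h and 1 in Raji at 8 h.

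The MCM2-7 helicase, which unwinds DNA at the fork, had 5 of its 6 subunits measured, and none of the 5 passed with BET inhibitor in either line. In LP-1 at 8 h the 5 changes lay between 0.03 and 0.32, highest for MCM4, which had 9.41 and 9.49 with BET inhibitor, against 9.0 and 9.25 with the inactive enantiomer (0.32 ± 0.13, adjusted p = 0.196). In Raji at 8 h they lay between -0.52 and -0.14. The lowest was MCM5, with 7.38 and 7.27 with BET inhibitor, against 7.70 and 7.99 with the inactive enantiomer (-0.52 ± 0.16, adjusted p = 0.158). MCM2 changed by -0.30 ± 0.12 in Raji over both times (adjusted p = 0.178), and was called lower there after quantile normalization, as was CDK6. LIG1, the ligase that seals Okazaki fragments, had changes of 0.26 ± 0.09 in Raji (adjusted p = 0.118) and 0.18 ± 0.09 in LP-1 (adjusted p = 0.280) over both times. RFC3 of the clamp loader changed by -0.27 ± 0.11 in LP-1 (adjusted p = 0.204), and POLD1 had changes of 0.01 to 0.04 in the 4 comparisons, with an interval of -0.32 to 0.34 in Raji at 8 h.

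The responses of the lines were then compared directly. The change in Raji minus that in LP-1 passed the test for no member at 4 h or 8 h, against 0.114% and 0.245% of all probe sets; 11 members at 4 h and 4 at 8 h had an unadjusted p under 0.05, against 15.2% and 9.04% of all probe sets. Likewise the change at 8 h minus that at 4 h passed for no member, nor for any probe set, in LP-1 or Raji, with 13 and 2 members at an unadjusted p under 0.05, against 13.2% and 5.71%. The largest such difference was that of UHRF1 in LP-1, at 1.14 ± 0.22 (adjusted p = 0.0991). Without BET inhibitor replicate 2 at 4 h in LP-1, 5 members passed the comparison of times in LP-1 and 1 passed the comparison of lines at 4 h.

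Over both times, the change of each gene in LP-1 and in Raji correlated across the 43 genes at a Pearson r of 0.811 and a Spearman rho of 0.806, and at 0.607 and 0.571 at 4 h and 0.699 and 0.682 at 8 h. The lines share no arrays in these values, and genes are not independent replicates. No correlation over all probe sets was computed, so these values cannot show whether the likeness is particular to these genes. On the deposited scale, CCNE1, CCNE2, CDK2, CHAF1B, CLSPN, GINS4, LIG1, ORC6, POLD1 and POLE had changes above 0 in each line at each time. CDK6, CDT1, GINS1, POLE2, PRIM1 and RFC3 had changes below 0 in each. Both lists are given whatever the test of a gene. The share of all probe sets with the same sign throughout was not computed, and the signs were not counted after another normalization.

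**Figure D3:**
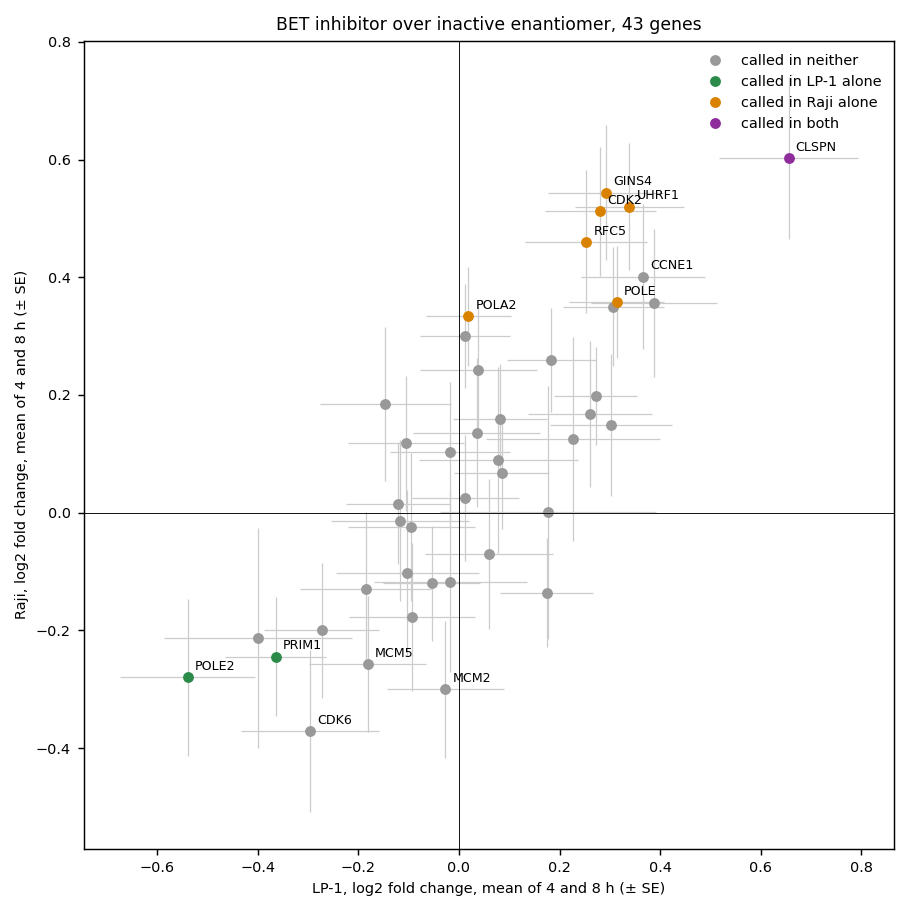
Log2 fold change with BET inhibitor over inactive enantiomer, mean of 4 and 8 h, in LP-1 (horizontal axis) and Raji (vertical axis) for the 43 genes; points are genes, coloured by call, and bars are the SE. CLSPN, called in both, lies at 0.66 in LP-1 and 0.60 in Raji, and POLE2 and PRIM1, called lower in LP-1, lie below 0 in both lines.

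The inactive enantiomer was also set against untreated cells. CCNE2 fell by 1.01 on the log2 scale in LP-1 at 8 h (SE 0.18, adjusted p = 0.0380), where 0.459% of all probe sets were called lower and 0.0454% higher, with the values given above for both groups. That call was lost without each of the 4 arrays compared, after quantile normalization, after centring and when only LP-1 arrays were fitted. Of the 43 changes in LP-1 at 8 h, 39 were below 0, with a median of -0.30, against -0.08 over all probe sets; quantile normalization gave -0.10 and 0.01. The untreated cells were taken at 0 h, so that the compound and the time in culture cannot be told apart. No member passed in LP-1 at 4 h or in Raji at 4 or 8 h, where 0.0136%, 0% and 0% of all probe sets passed; 2 members in LP-1 at 4 h, 6 in Raji at 4 h and 1 in Raji at 8 h had an unadjusted p under 0.05, against 4.95%, 7.91% and 4.52% of all probe sets.

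Genes that act with the 43 were read from 2 further lists. Of 32 measured among 36 other replication and S phase genes, 4 rose and 1 fell in LP-1 at 8 h with BET inhibitor over the inactive enantiomer, against 3.76% of all probe sets called higher and 1.97% called lower. EXO1, a DNA exonuclease, had 8.84 and 9.03 with BET inhibitor, against 7.90 and 8.03 with the inactive enantiomer (0.97 ± 0.17, adjusted p = 0.00697). GMNN, which encodes geminin, the inhibitor of CDT1, had 8.29 and 8.41, against 7.17 and 7.57 (0.99 ± 0.24, adjusted p = 0.0302). ATAD2 rose by 0.78 and ASF1B, a histone chaperone, by 0.65, while RNASEH2B, a subunit of ribonuclease H2, fell by 0.66 at 8 h and by 0.67 at 4 h, when it was the only one called, against 2.28% of all probe sets. Over both times in LP-1, EXO1 rose by 0.44, and RNASEH2B fell by 0.67 and ORC5, another subunit of the origin recognition complex, by 0.71, against 2.62% of all probe sets called higher and 4.44% lower. ORC5 had 6.47 and 7.11 at 4 h and 6.50 and 6.98 at 8 h with BET inhibitor, against 7.52 and 7.61 at 4 h and 7.38 and 7.40 at 8 h with the inactive enantiomer (adjusted p = 0.0112), with no overlap. ORC5 and RNASEH2B passed over both times without each of the 8 arrays in turn, and EXO1 in 1 of these 8 fits. In Raji, ASF1B had 7.91 and 8.13 with BET inhibitor at 4 h, against 6.92 and 7.14 with the inactive enantiomer (0.99 ± 0.15, adjusted p = 0.00901), and TICRR, which helps to fire origins, rose by 0.72 at 4 h, when 1.44% of all probe sets were called higher. None of the 32 passed in Raji at 8 h, where 5 had an unadjusted p under 0.05, against 13% of all probe sets. Over both times in Raji, ASF1B, TICRR and ATAD2 rose, against 4.30% of all probe sets called higher.

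Of 23 measured among 27 regulators of the G1/S step, 4 rose and 2 fell in LP-1 at 8 h, against 3.76% of all probe sets called higher and 1.97% lower. The 4 were the kinase inhibitors CDKN2D and CDKN1A, the ubiquitin ligase subunit FBXW7, which marks cyclin E for breakdown, and the repressor E2F7. E2F7 had 7.64 and 7.29 with BET inhibitor, against 6.22 and 6.39 with the inactive enantiomer (1.16 ± 0.19, adjusted p = 0.00416). E2F5 fell by 1.18 and E2F4 by 0.54, both E2F family members that act mainly as repressors. At 4 h in LP-1, CDKN1A rose and E2F8 and E2F2 fell, E2F8 by 0.91 and E2F2 by 0.82, against 2.28% of all probe sets called. Over both times in LP-1, CDKN1A, CDKN2D, E2F7 and FBXW7 rose and E2F5, E2F2 and E2F4 fell, against 2.62% of all probe sets called higher and 4.44% lower. In Raji at 8 h, CDKN1B, which encodes the cyclin E kinase inhibitor p27, had 6.39 and 6.47 with BET inhibitor, against 4.96 and 5.16 with the inactive enantiomer (1.37 ± 0.22, adjusted p = 0.00895). It was the only one of the 23 called at 8 h, when 0.827% of all probe sets were called higher and 1.05% lower. None was called in Raji at 4 h, where 6 had an unadjusted p under 0.05, against 14.1% of all probe sets. Over both times in Raji, CDKN1B, CDKN2D and FBXW7 rose and SKP2, which marks p27 for breakdown, fell by 0.41, against 4.30% of all probe sets called higher and 1.99% lower.

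The untreated lines differed in 14 of the 43 genes, with 2 higher and 12 lower in Raji, against 6.79% of all probe sets called higher and 17.5% called lower. CCNE1 had 5.59 and 5.76 in Raji, against 7.75 and 7.58 in LP-1, a difference of -1.99 ± 0.17 (adjusted p = 1.69e-06). CDK6, a cyclin D kinase, had 8.33 and 8.34 in Raji, against 9.74 and 10.11 in LP-1 (-1.59), and RFC2 of the clamp loader had 6.97 and 6.81, against 8.14 and 8.60 (-1.48). The other genes lower in Raji were MCM10, GINS4, PRIM2, PRIM1, RFC5, CCNE2, RFC4, CHAF1B and POLA2, with differences of -1.24 to -0.45. LIG1 was higher in Raji, at 7.29 and 7.45, against 6.45 and 6.44 in LP-1 (0.92 ± 0.12, adjusted p = 9.33e-05), as was MCM4, at 9.68 and 9.70, against 9.17 and 9.34 (0.44 ± 0.13, adjusted p = 0.0264). For each gene given with its values, the lines did not overlap.

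The split of these calls moved with the scaling. Quantile normalization gave 24 genes, 14 higher and 10 lower in Raji, among them 4 MCM subunits called higher, and centring the arrays, which moved the median of all probe sets to 0.11, against -0.03 as deposited, gave 3 higher and 10 lower; the count ran from 9 without Raji replicate 2 to 13 without LP-1 replicate 2.

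**Figure D4:**
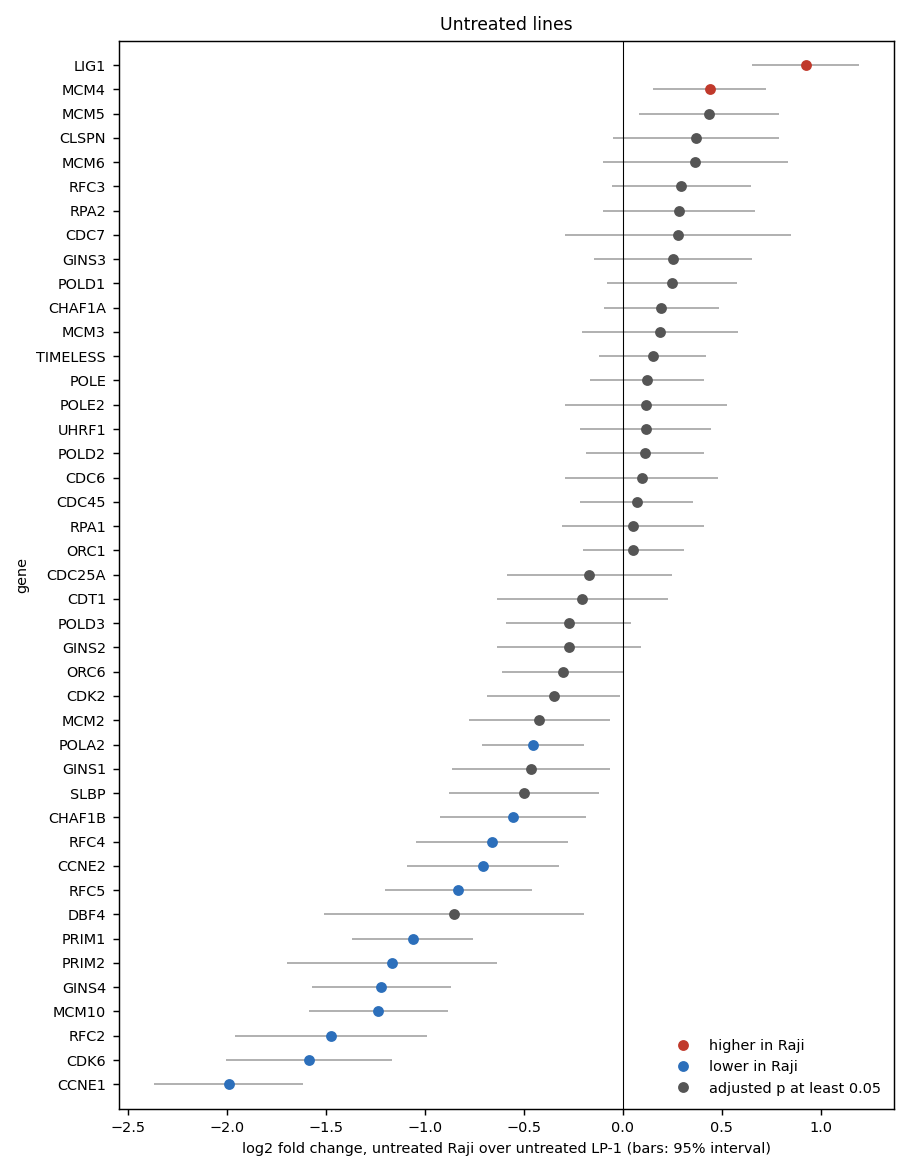
Log2 fold change of untreated Raji over untreated LP-1 for the 43 genes (rows); points are fitted differences, bars their 95% intervals, and colours the call. CCNE1 lies lowest at -1.99 and LIG1 highest at 0.92.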

How the data were processed

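The deposited values are log2 expression values of transcript-level probe sets, made by the authors with RMA in Affymetrix Expression Console on hg19, per the submitters' processing notes; versions are not given in the sources used here. They were used as deposited. Arrays carry no read depth, so the number of arrays limits the precision.

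Symbols came from the platform's probe table: 14432 of 22011 probe sets had 1 symbol, 2408 several and 5171 none, and 14404 of the first matched RefSeq (GRCh38.p14) by Entrez identifier. No measured member had more than 1 probe set annotated to its symbol alone. ORC6 also lay on a probe set of several symbols, which was not used. All 20 arrays entered a single limma model (limma 3.58.1, R 4.3.3) with a mean for each of the 10 groups, 10 residual and 2.59 prior degrees of freedom, from which 15 two-sided comparisons were taken. The p-values measure the spread between 2 replicates per group, pooled over groups, and intervals cover 95%. The fit was also run on simulated data with added changes, and the outcome is not reported here. Named genes are the members called with BET inhibitor, the smallest p of each role, the extremes of other comparisons, the MYC and HEXIM1 checks and up to 3 called genes per direction of the other lists; CDC7, CDC6, CDT1, MCM5, POLD1, ASF1B and FBXW7 at 8 h in LP-1, and genes given by name alone, were named after their values were seen. The members and lists were chosen with earlier results of these data known. Alternatives were quantile normalization, centring, a filter on low values, an intensity trend, 1 line alone, the replicate number as a block, and each array left out.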

Additional observations from a re-analysis of the deposited data

How the results depend on the processing

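None of the changes checked reversed in direction. Those checked were called changes of named genes, changes that a naming rule chose, and those of MYC and HEXIM1. Other changes given in the text, such as those of CDC7, CDC6, CDT1, MCM5 and POLD1, were not checked. Of 464 pairs of a called change and an array left out, 294 kept the call and 170 lost it, and of 492 pairs of a called change and another setting, 420 kept it and 72 lost it. The counts of called members moved by over 1.5 times as follows. In LP-1 at 8 h (7), centring gave 3, LP-1 arrays alone 2 and single arrays left out 3 to 6; at 4 h (0), arrays left out gave 0 to 3; over both times (3), quantile normalization gave 8 and arrays left out 1 to 5. In Raji at 4 h (1), centring and Raji arrays alone gave 0, an intensity trend and the filter on low values 2 each, and arrays left out 0 to 0; at 8 h (1), Raji arrays alone gave 0 and arrays left out 0 to 0; over both times (7), Raji arrays alone gave 2 and arrays left out 0 to 6. For the inactive enantiomer over untreated LP-1 at 8 h (1), centring, LP-1 arrays alone, quantile normalization and every array left out gave 0. For untreated Raji over LP-1 (14), quantile normalization gave 24 and arrays left out 9 to 13. Arrays left out gave 0 to 1 for the difference between lines at 4 h and 0 to 5 for that between times in LP-1. Fits of fewer arrays have fewer degrees of freedom; the cause of the other shifts was not tested.

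The labels number replicates 1 and 2 in each group. Deviations of same-numbered arrays correlated over 0.1 in 1 of 10 pairs of groups in LP-1 (-0.03 to 0.12) and 0 of 10 in Raji (-0.16 to 0.05). These values cannot show whether same-numbered arrays shared a culture or a day, which the labels do not state. With the replicate number as a block, the count of called members was 0 in Raji at 4 h, 0 at 8 h and 4 over both times. It was 6 in LP-1 at 8 h, where CCNE2 and RFC5 lost their calls and PRIM2 was called higher. For the inactive enantiomer over untreated LP-1 at 8 h it was 0. The alternative that averages several probe sets per gene gave no value, since no member had several annotated to its symbol alone.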
